A study of Mus musculus with 4 samples.

Results

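The hnRNP genes and the DEAD-box (Ddx) genes were followed in RNA pulled down with tagged ribosomes from mouse hippocampus after sleep deprivation. They were chosen by name as the protein-coding genes of GENCODE mouse release 21 whose symbol begins with Hnrnp or is Ddx with a number, and 55 genes met this rule, 20 hnRNP and 35 Ddx, among 35498 genes in the files. A further 2 DEAD-box genes were not analysed here. The 55 genes have 361 annotated transcripts. All 20 hnRNP genes and 34 of the 35 Ddx genes passed the filter on low counts, and Ddx43 did not.

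The sleep-deprived group was fear conditioned, which pairs a place or cue with a shock, and then kept awake for 6 h. The control group had the same training and then 6 h in which it could sleep. All mice were C57BL/6J aged 4 months and carried P2RY12CreER, a drug-inducible Cre expressed in microglia, with Rpl22HA, a ribosomal protein that gains a tag where Cre has acted. The RNA was pulled down with the tag and enriched for polyA, and each sample pooled 2 mice. The titles put 2 files in each group, although the treatment field names sleep deprivation for all 4.

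The files held 14473030 and 14431647 estimated reads in the sleep-deprived group and 14877011 and 14833320 in control. The series text calls the samples technical replicates. Counts of the paired files in each group lay closer together than sampling noise would put them, with a chi-square per degree of freedom of 0.231 between the sleep-deprived files and 0.335 between the control files, where independent reads of a library give about 1. They were counted as 1 sample. Every comparison therefore sets 1 library against 1 library (n = 1 per group), without a test, and says nothing about the spread between mice. Values are counts per 1000000 reads (CPM) after TMM scaling, and a ratio is sleep-deprived over control with its 95% counting interval. A gene is called higher or lower when the ratio is at least 2-fold and the interval excludes 1. Markers of cell types also differed between the libraries. The 10 microglial markers summed to 546 CPM in the sleep-deprived library and 165 CPM in control, and 9 of them were higher. The 9 neuronal markers summed to 3196 CPM in the sleep-deprived library and 3631 CPM in control. The 6 astrocyte markers summed to 803 CPM in the sleep-deprived library and 1541 CPM in control, the 5 oligodendrocyte markers to 1837 against 2991 CPM in control and the 4 endothelial markers to 127 against 131 CPM in control. Every marker on these lists was detected in both libraries. The hnRNP and Ddx genes are used by all these cells, so their reads could not be assigned to microglia, and the part of cell makeup in the values below was not tested.

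The hnRNP proteins coat new transcripts in the nucleus, where they set splice sites, polyadenylation and export. The DEAD-box proteins use ATP to unwind short RNA helices or to move proteins along RNA, in the spliceosome, in ribosome assembly, at the nuclear pore and in the cytoplasm. Many genes of both families limit their own protein by splicing part of their message into forms that keep an intron or include an exon with an early stop codon. Such forms stay in the nucleus or are removed by nonsense-mediated decay, the pathway that degrades messages with a premature stop. For that reason the transcripts were followed as well as the genes.

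Stretches that set some of these forms apart, chosen because each meets a stop codon in frame, are shown first, from the GENCODE release 21 transcripts on GRCm38 (mm10), read 5′ to 3′ on the gene's own strand. In the first 4, the first 20 bases are the end of a coding exon, the rest is the intron that follows it, and capitals mark the first stop codon in the reading frame of the most abundant coding transcript. Ddx5-208 (chr11:106783899-106783978, minus strand) reads into a 1265-base intron and meets TAG at intron base 3. Ddx23-203 (chr15:98652828-98652907, minus strand) meets TGA at base 31 of a 349-base intron. Ddx46-204 (chr13:55659079-55659228, plus strand) meets TAA at base 123 of a 1618-base intron. Hnrnpll-204 (chr17:80038532-80038611, minus strand) reads 1443 bases into an intron and meets TAG at base 16.
Ddx5-208: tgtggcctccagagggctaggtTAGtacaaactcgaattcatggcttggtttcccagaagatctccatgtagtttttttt
Ddx23-203: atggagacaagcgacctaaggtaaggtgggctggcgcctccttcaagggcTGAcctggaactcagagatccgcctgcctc
Ddx46-204: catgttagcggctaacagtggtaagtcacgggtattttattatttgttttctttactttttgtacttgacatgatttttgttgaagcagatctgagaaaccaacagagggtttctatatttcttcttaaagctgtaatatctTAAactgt
Hnrnpll-204: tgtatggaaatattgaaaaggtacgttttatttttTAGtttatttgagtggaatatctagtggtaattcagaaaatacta

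The next is an exon that some transcripts of its gene hold and others skip. The exon of Hnrnpl-213 (chr7:28817335-28817404, plus strand) has 70 bases and its capitals mark an in-frame TGA at base 57.
Hnrnpl-213: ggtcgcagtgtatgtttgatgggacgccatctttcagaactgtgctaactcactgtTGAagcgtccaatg

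Over whole genes, both families took up more of the sleep-deprived library, although few single members passed 2-fold. The 20 hnRNP genes summed to 11721 CPM in the sleep-deprived library and 8238 CPM in control, a ratio of 1.42 (1.41 to 1.43). The 35 Ddx genes summed to 8742 CPM in the sleep-deprived library and 6513 CPM in control, a ratio of 1.34 (1.33 to 1.35). Among the 54 measured members, Hnrnpm and Ddx11 were called higher (2 genes) and Ddx60 lower (1 gene), beside 4.24% of all 14916 measured genes called higher and 5.66% called lower. At gene level the count of calls was thus near the background. At 1.5-fold 9 members were higher and 2 lower, beside 12.5% and 13.6% of all measured genes. The median log2 ratio was 0.25 for the hnRNP genes and 0.08 for the Ddx genes, against −0.01 for all measured genes with quartiles at −0.39 and 0.35. The Ddx sum rested on Ddx5: without it the other Ddx genes summed to 3847 CPM in the sleep-deprived library and 3365 CPM in control, a ratio of 1.14 (1.13 to 1.16).

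**Figure D1:**
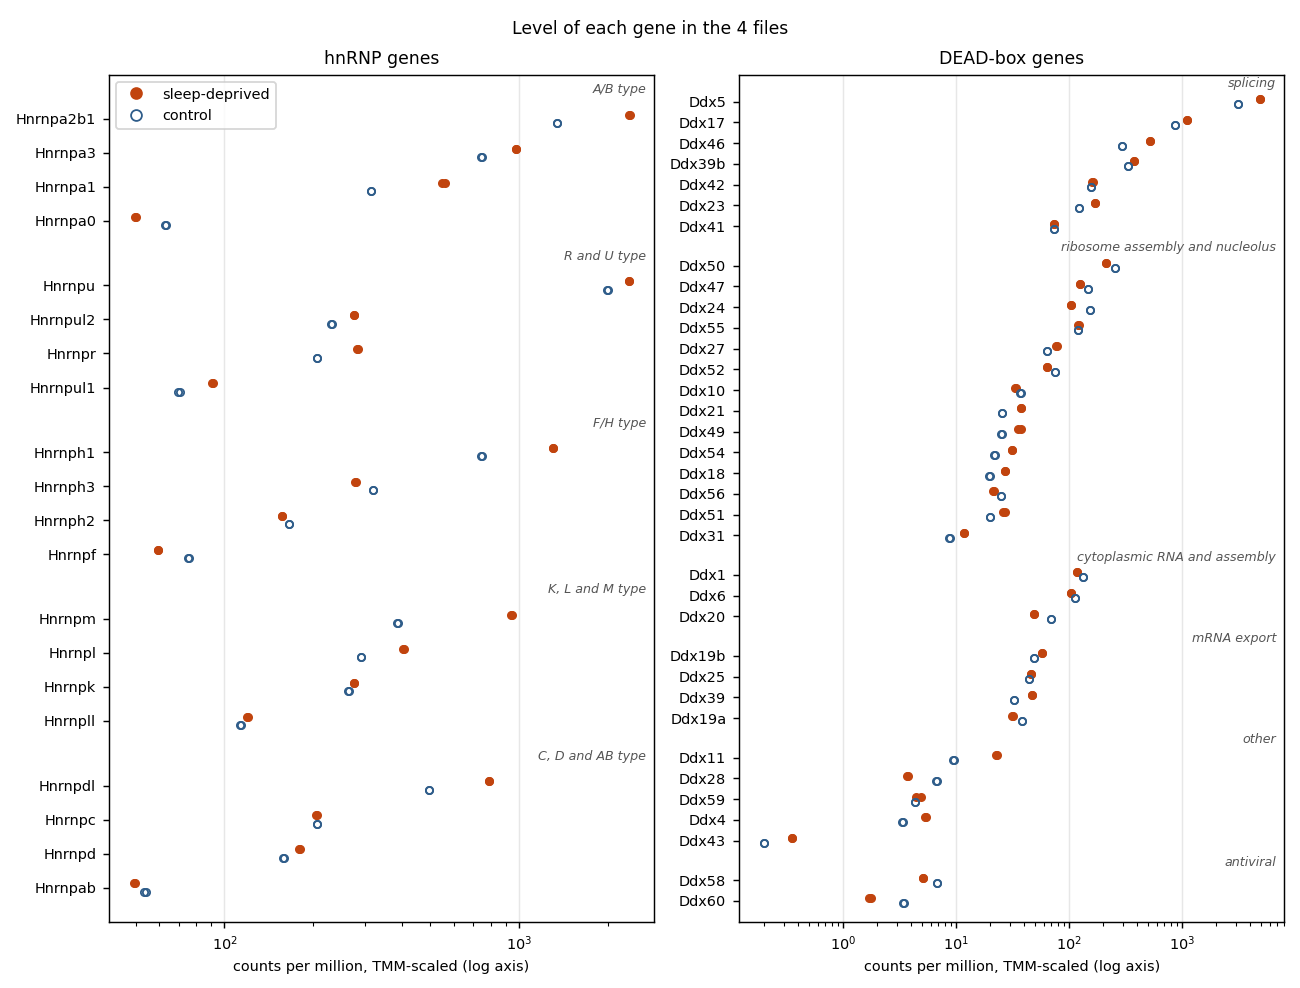
Level of each hnRNP gene (left) and Ddx gene (right) in each of the 4 files, as TMM-scaled CPM on a log axis, sorted by role and level; filled points are sleep-deprived files and open points control files. The files of a group lie almost on top of each other, and the widest separation among the well-covered genes is that of Hnrnpm, at 942 and 943 CPM in sleep-deprived files and 386 and 387 CPM in control files.

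Per unit of length, the most abundant members were Hnrnpa2b1, Ddx5, Hnrnph1 and Hnrnpu in the sleep-deprived library, with 4244, 2923, 2118 and 1625 transcripts per 1000000 (TPM), against 2339, 1597, 1491 and 1381 TPM in control. TPM was used as deposited, without TMM scaling, and its scale differed between the libraries. Ddx10, with 1 transcript, had 22.0 TPM in the sleep-deprived library and 20.7 TPM in control, where its CPM ratio was 0.908. The TPM values therefore rank genes within a library only.

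Among the A/B-type hnRNP genes, which encode the core proteins that package nascent RNA, 3 of 4 lay above 1 and their sum was 1.60 times control (1.58 to 1.62). Hnrnpa2b1 had 2367 and 2371 CPM in the sleep-deprived files, against 1340.3 and 1344 CPM in the control files, a ratio of 1.76 (1.73 to 1.80). Hnrnpa1, a repressor of splice sites, had 561 and 549 CPM in the sleep-deprived files and 315 and 315 CPM in the control files, a ratio of 1.76 (1.70 to 1.83). Hnrnpa3 stood at 977 and 975 CPM in the sleep-deprived files, against 744 and 747 CPM in control files, a ratio of 1.31 (1.28 to 1.34). All 3 ratios lay above 1, but none reached 2-fold. Hnrnpa0, an AU-rich element binder, ran the other way at 49.6 and 50.04 CPM in the sleep-deprived files against 62.9 and 63.2 CPM in the control files, a ratio of 0.791 (0.716 to 0.873).

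The K, L and M types, which bind C-rich, CA-rich and G/U-rich RNA, all lay above 1 and together stood at 1.65 times control (1.62 to 1.69). Hnrnpm (ENSMUSG00000059208.15, chr17:33646233-33686860, minus strand), a splicing regulator known for alternative exons of immune and cell-adhesion genes, had the highest ratio of the measured members. It had 942 and 943 CPM in the sleep-deprived files, against 386 and 387 CPM in the control files, a ratio of 2.44 (2.36 to 2.51). Its coding transcripts Hnrnpm-201 and Hnrnpm-202 had ratios of 2.81 (2.69 to 2.94) and 2.84 (2.67 to 3.02), while its transcripts labelled retained intron took 8.25% of its reads in the sleep-deprived library and 13.5% in control. On the same strand Hnrnpm shares 14.7% of its exon bases with the ubiquitin ligase gene March2, so a part of its reads could belong there. Hnrnpl had 404 and 407 CPM in the sleep-deprived files, against 290.4 and 289.8 CPM in control files, a ratio of 1.40 (1.34 to 1.45). Its relative Hnrnpll, a splicing factor of lymphocytes and neurons, had a ratio of 1.05 (0.983 to 1.13) and Hnrnpk 1.04 (0.999 to 1.09), both with intervals that include 1.

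The F/H types, which bind runs of G, were split. Hnrnph1 had 1302 and 1306 CPM in the sleep-deprived files, against 743 and 746 CPM in the control files, a ratio of 1.75 (1.71 to 1.79). The other members lay below 1, with 0.949 (0.896 to 1.01) for Hnrnph2, 0.874 (0.838 to 0.912) for Hnrnph3 and 0.787 (0.719 to 0.861) for Hnrnpf. The C, D and AB types ranged between 1.60 (1.55 to 1.65) for Hnrnpdl, at 788 and 789 CPM in the sleep-deprived files against 493 and 493 CPM in the control files, and 0.924 (0.834 to 1.02) for Hnrnpab. Hnrnpc, which counts the length of new RNA, stood at 0.998 (0.949 to 1.05). Of Hnrnpab's exon bases 29.1% are shared with a gene on the opposite strand, and the labels and file headers do not say whether reads were counted by strand. The R and U types were all above 1, between 1.18 (1.16 to 1.20) for Hnrnpu and 1.37 (1.31 to 1.44) for Hnrnpr, a binder of neuronal messages, and with transcript lengths allowed for 3 of the 4 lay above 1. Per unit of length Hnrnpr had 59.7 TPM in the sleep-deprived library and 67.4 TPM in control, on the TPM scale that was not matched between libraries.

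Of the Ddx genes, those of the spliceosome and of splicing control had the highest sum, 7307 CPM in the sleep-deprived library and 4999 CPM in control, a ratio of 1.46 (1.45 to 1.48). All 7 lay at or above 1, and with library totals as the scale 5 of the 7 lay above 1. Ddx5 (p68; ENSMUSG00000020719.14, chr11:106780355-106789185, minus strand), a helicase of splicing, transcription and microRNA processing, had 4894 and 4894 CPM in the sleep-deprived files, against 3147 and 3149 CPM in the control files, a ratio of 1.55 (1.54 to 1.57). Its partner Ddx17 (p72) had a ratio of 1.28 (1.25 to 1.31). Ddx46, which opens the U2 snRNP for the branch site, had 520.0 and 520.2 CPM in the sleep-deprived files, against 294 and 294 CPM in the control files. Its ratio of 1.77 (1.70 to 1.84) missed the 2-fold rule, but with transcript lengths allowed for it was 2.14 (2.06 to 2.22) and called higher. Ddx23, of the U5 snRNP, stood at 1.39 (1.31 to 1.48) and Ddx39b (UAP56), of both splicing and export, at 1.13 (1.08 to 1.17). Ddx42 and Ddx41 had ratios of 1.03 (0.975 to 1.09) and 1.0 (0.923 to 1.09).

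The 14 genes of ribosome assembly and the nucleolus summed to 936 CPM in the sleep-deprived library and 1000 CPM in control, a ratio of 0.936 (0.915 to 0.958), with 8 genes above 1 and 6 below. They ranged between 0.683 (0.640 to 0.729) for Ddx24 and 1.49 (1.31 to 1.71) for Ddx21, a helicase of rRNA transcription. Ddx50, the close relative of Ddx21, had 214 and 214 CPM in the sleep-deprived files against 256 and 255 CPM in the control files, a ratio of 0.837 (0.798 to 0.878). Ddx47 stood at 0.850 (0.798 to 0.905). All 3 cytoplasmic genes lay below 1, between 0.716 (0.650 to 0.789) for Ddx20 (Gemin3), a helicase that assembles spliceosomal snRNPs, and 0.922 (0.859 to 0.989) for Ddx6, of messenger RNA storage. With transcript lengths allowed for, 1 of the 3 lay above 1. The 4 export genes summed to 183 CPM in the sleep-deprived library and 165 CPM in control, a ratio of 1.11 (1.05 to 1.17), and ranged between 0.815 (0.719 to 0.923) for Ddx19a and 1.43 (1.27 to 1.61) for Ddx39, of whose exon bases 17.4% lie opposite Adgre5.

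The remaining calls came from genes with few reads. The 5 genes of other roles, among them Ddx11, Ddx28 and Ddx4, summed to 37.1 CPM in the sleep-deprived library and 24.1 CPM in control, a ratio of 1.53 (1.34 to 1.76). Ddx11 (ENSMUSG00000035842.10, chr17:66123520-66152174, plus strand), a DNA helicase of chromatid cohesion that carries the family's name, had 328 and 322 reads in the sleep-deprived files, against 142 and 144 in the control files. These are 23.1 and 22.8 CPM in the sleep-deprived files and 9.41 and 9.57 CPM in the control files, a ratio of 2.42 (1.98 to 2.96). Ddx60 (ENSMUSG00000037921.15, chr8:61928087-62038244, plus strand), an interferon-induced cofactor of viral RNA sensing, had 25 and 24 reads in the sleep-deprived files against 51 and 52 in the control files, a ratio of 0.491 (0.290 to 0.811). Its call was lost with transcript lengths allowed for (0.535), without the second sleep-deprived file (0.511) and without the second control file (0.502). Ddx58 (RIG-I), the RNA sensor itself, stood at 0.751 (0.548 to 1.03). Ddx28, of mitochondrial ribosome assembly, had a ratio of 0.548 (0.384 to 0.773). Ddx4 (Vasa), a germ-line helicase, was read at 5.36 and 5.44 CPM in the sleep-deprived files against 3.31 and 3.39 CPM in the control files.

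Related lists were counted in the same way. The 11 SR factors, which act beside and against hnRNP proteins at splice sites, summed to 8264 CPM in the sleep-deprived library and 5265 CPM in control, a ratio of 1.57, with a median log2 ratio of 0.42. Srsf5 at 2.79-fold (2.73 to 2.84) and Srsf6 at 2.21-fold (2.15 to 2.27) were called higher and none lower. The 16 DEAH-box helicases had no call and a sum of 1.09 times control, and the 3 eIF4A-type DEAD-box genes had none and a sum of 0.896 times control. The 15 genes of nonsense-mediated decay and the exon junction complex summed to 1.5 times control, but the kinase gene Smg1 had 2191 CPM in the sleep-deprived library and 1104 CPM in control, and the other 14 summed to 1.12 times control (1.10 to 1.14). The list had a median log2 ratio of 0.21 and 1 called lower, Magohb at 0.496 (0.334 to 0.726).

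Counting coding transcripts alone changed the picture for several members. Coding transcripts of the hnRNP genes summed to 6148 CPM in the sleep-deprived library and 4161 CPM in control, a ratio of 1.48 (1.46 to 1.49). Those of the Ddx genes summed to 5962 CPM in the sleep-deprived library and 5218 CPM in control, a ratio of 1.14 (1.13 to 1.15). Hnrnpm and Hnrnpa2b1 were called higher on their coding transcripts, at 2.58-fold and 2.10-fold, and Hnrnpa1 and Ddx60 lower. On this measure 6.46% of 14095 genes were called higher and 6.44% lower. The Hnrnpa1 call rests on labels and is not a measured loss of coding sequence. Its transcripts Hnrnpa1-203 and Hnrnpa1-204, labelled nonsense-mediated decay, hold all coding bases of the coding Hnrnpa1-202. For Hnrnpu, which anchors chromatin and regulates splicing, the coding ratio was 1.84 (1.79 to 1.89) where the gene's was 1.18. For Hnrnph3 it was 1.63 where the gene's was 0.874. For Ddx5 it was 1.18 (1.16 to 1.20) where the gene's was 1.55, and for Ddx39b 0.943 where the gene's was 1.13. For Ddx11 it was 1.86 (1.46 to 2.38) where the gene's was 2.42, so the gene's call did not hold on coding transcripts. Ddx39 and Ddx54 had coding ratios of 1.02 and 1.03, where both genes stood at 1.43.

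**Figure D2:**
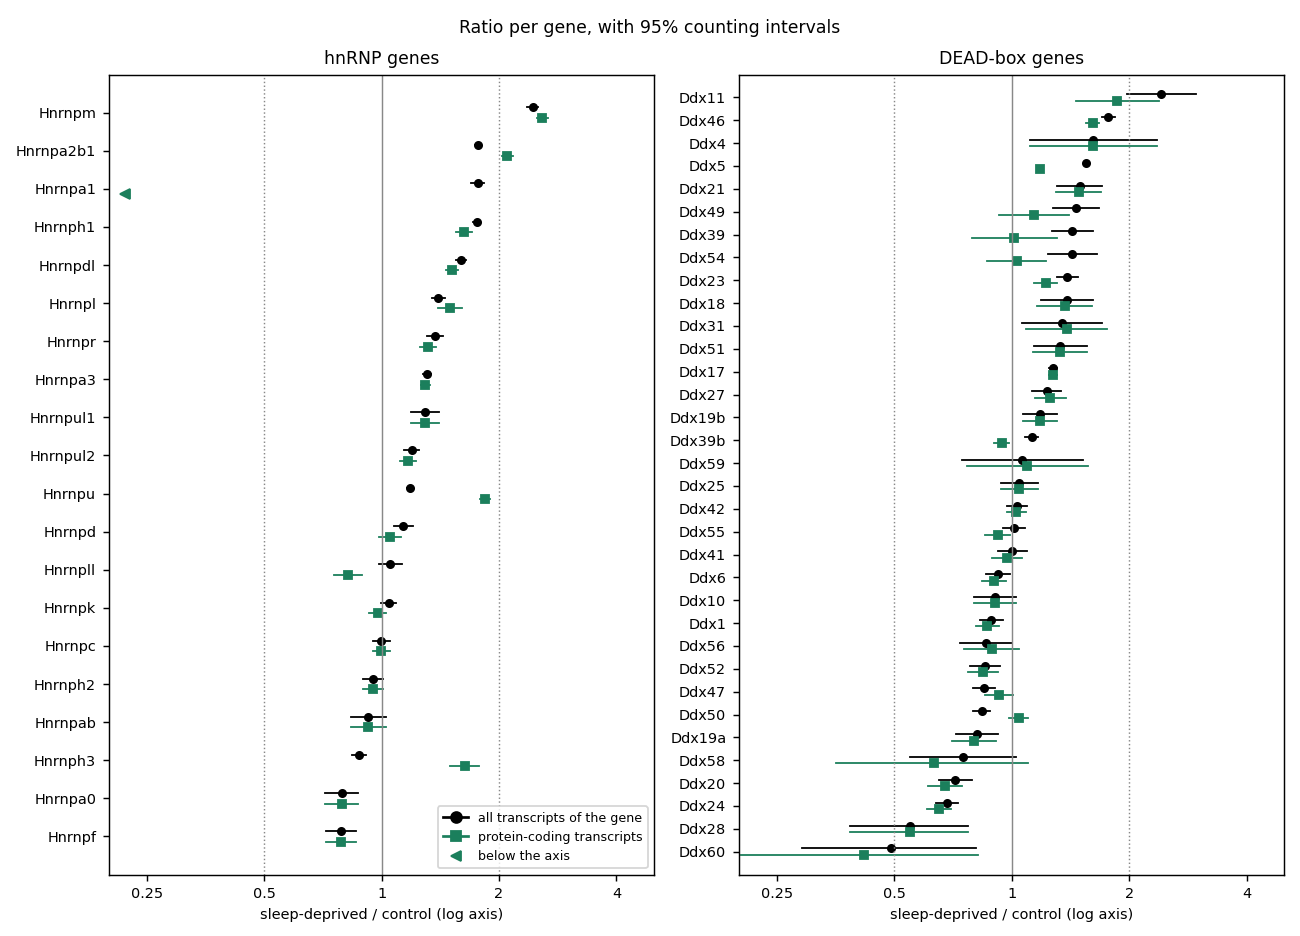
Ratio of sleep-deprived over control for each measured gene on a log axis, for all of its transcripts (black circles) and for its protein-coding transcripts (green squares), with 95% counting intervals as lines; dotted lines mark 2-fold. The 2 measures part for Hnrnpu (1.18 for the gene, 1.84 for coding transcripts), Hnrnph3 (0.874 and 1.63), Ddx5 (1.55 and 1.18) and Hnrnpa1, whose coding value of 0 in the sleep-deprived library is drawn as an arrow at the axis end.

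Ddx5 held a large part of its reads on a form with an early stop codon. Ddx5-201, which encodes the full protein, had 2561 and 2565 CPM in the sleep-deprived files, against 2173 and 2176 CPM in the control files. Ddx5-208, labelled nonsense-mediated decay, had 2285 and 2283 CPM in the sleep-deprived files against 948 and 949 CPM in the control files, a ratio of 2.41 (2.36 to 2.46). As the sequence above shows, Ddx5-208 is an intron-keeping form, whose frame ends at intron base 3. Of its 31-base words 22.9% occur in no other quantified transcript and 30.4% occur in another gene. For Ddx5-201, 31.2% occur in another gene. Transcripts labelled nonsense-mediated decay took 46.7% (46.3 to 47.0) of Ddx5 reads in the sleep-deprived library and 30.1% (29.7 to 30.5) in control, beside 6.27% of 3239 genes whose share was called higher and 8.15% called lower. Within the kept intron lie 2 annotated microRNA genes on the same strand, Mir3064, which runs over its last base, and Gm25994.

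**Figure D3:**
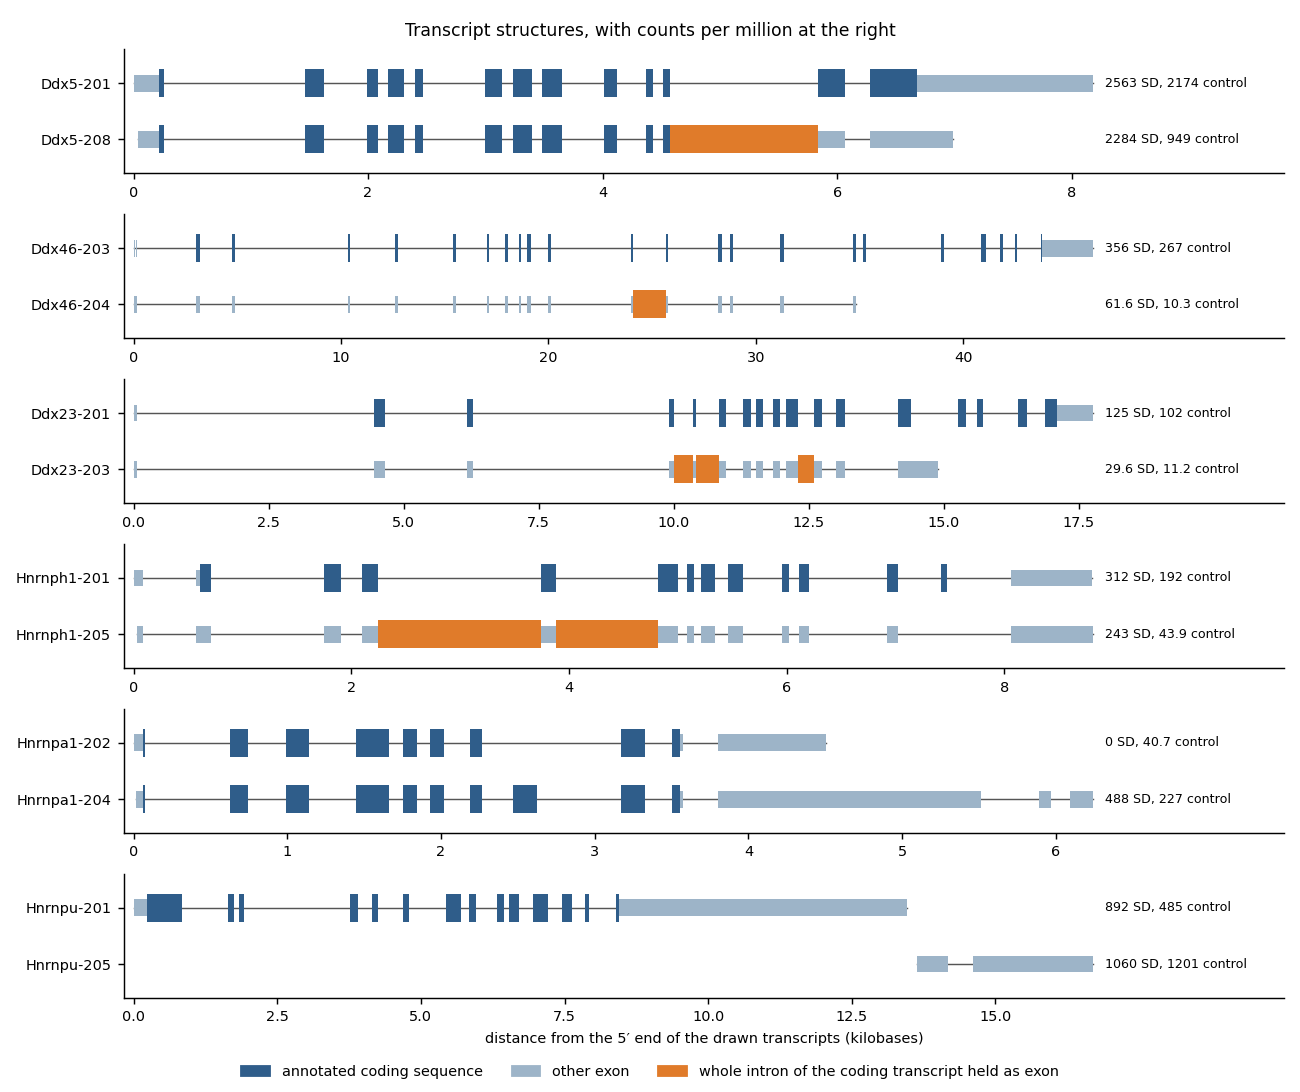
Structures of the coding transcript and 1 other transcript of 6 genes, drawn 5′ to 3′ with distance in kilobases; dark blocks are annotated coding sequence, pale blocks other exon, and orange blocks whole introns of the coding transcript that the other transcript keeps. The numbers at the right are CPM, such as 2284 in the sleep-deprived library (SD) and 949 in control for Ddx5-208, which keeps 1 intron, and 243 against 43.9 in control for Hnrnph1-205, which keeps 2.

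Forms that read into an intron were also called higher in Ddx46, Ddx23 and Ddx39b. Ddx46-204 had 62.0 and 61.1 CPM in the sleep-deprived files, against 9.93 and 10.7 CPM in the control files, a ratio of 5.95 (5.02 to 7.11), while the gene's main coding transcript Ddx46-203 stood at 1.33 (1.28 to 1.39). Another coding transcript, Ddx46-202, stood at 5.98 (5.23 to 6.87), but it has no 31-base word of its own and was listed at 0 in 1 control file. Only 0.52% of the words of Ddx46-203 are its own, so the split between these coding transcripts rests on the model. All coding transcripts of Ddx46 together stood at 1.62 (1.55 to 1.68). Ddx23-203, which keeps 3 introns, had 30.1 and 29.1 CPM in the sleep-deprived files against 11.8 and 10.6 CPM in the control files, a ratio of 2.64 (2.20 to 3.17). Ddx39b-204, which ends within an intron, had 104 and 105 CPM in the sleep-deprived files against 44.4 and 46.8 CPM in the control files, a ratio of 2.29 (2.09 to 2.51), and Ddx39b-201, the coding form, stood at 0.917 (0.878 to 0.959). In each case the sleep-deprived files lay above both control files, but the files of a group count as 1 library, so this is not agreement between replicates. Outside splicing, Ddx54-204 and Ddx11-207, which keep 2 introns each, had ratios of 3.37 (2.47 to 4.65) and 3.68 (2.51 to 5.52). Ddx54 and Ddx49 overlap genes on the other strand over 14.2% and 29.9% of their exon bases.

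As shares of each gene's reads, transcripts labelled retained intron were called higher in 7 members and lower in 1, of 36 with at least 100 reads in each library. The rule asked for 10 percentage points with 95% binomial intervals apart, and 9.64% of 6605 genes met it upward and 4.38% downward. The share was 41.5% in the sleep-deprived library and 25.2% in control for Ddx11, and 26.1% against 16.0% in control for Ddx23. For Ddx39b it was 27.8% in the sleep-deprived library and 13.7% in control. It was 62.9% against 52.2% in control for Ddx49, and 40.4% against 17.2% in control for Ddx54. Among the hnRNP genes it was 38.9% in the sleep-deprived library and 25.9% in control for Hnrnpl, and 25.5% against 15.5% in control for Hnrnpll. Hnrnph3 ran the other way, with 41.5% in the sleep-deprived library and 56.5% in control. As shares of TPM, retained-intron labels were called higher in 8 members and lower in 3, beside 17.5% and 6.77% of genes, and with 5 points of reads in 9 and 3, beside 17.7% and 7.81%. For nonsense-mediated decay labels, 2 of 16 members were higher and 1 lower by the 10-point rule, beside 6.27% and 8.15% of 3239 genes. Those higher were Ddx5 and Hnrnpa1, and Hnrnpl was lower. As shares of TPM the counts were 2 and 2, beside 7.69% and 9.6% of genes. With 5 points they were 5 and 1, beside 11% and 12.2%. In 19 of 22 Ddx genes the retained-intron share was above control, and in 9 of 14 hnRNP genes. Over all genes it was above control in 4041 of 6605, and retained-intron transcripts took 13.3% of all reads in the sleep-deprived library and 10.6% in control. The members' direction was thus shared with the whole library, and the part of that shift in the members' values was not tested.

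**Figure D4:**
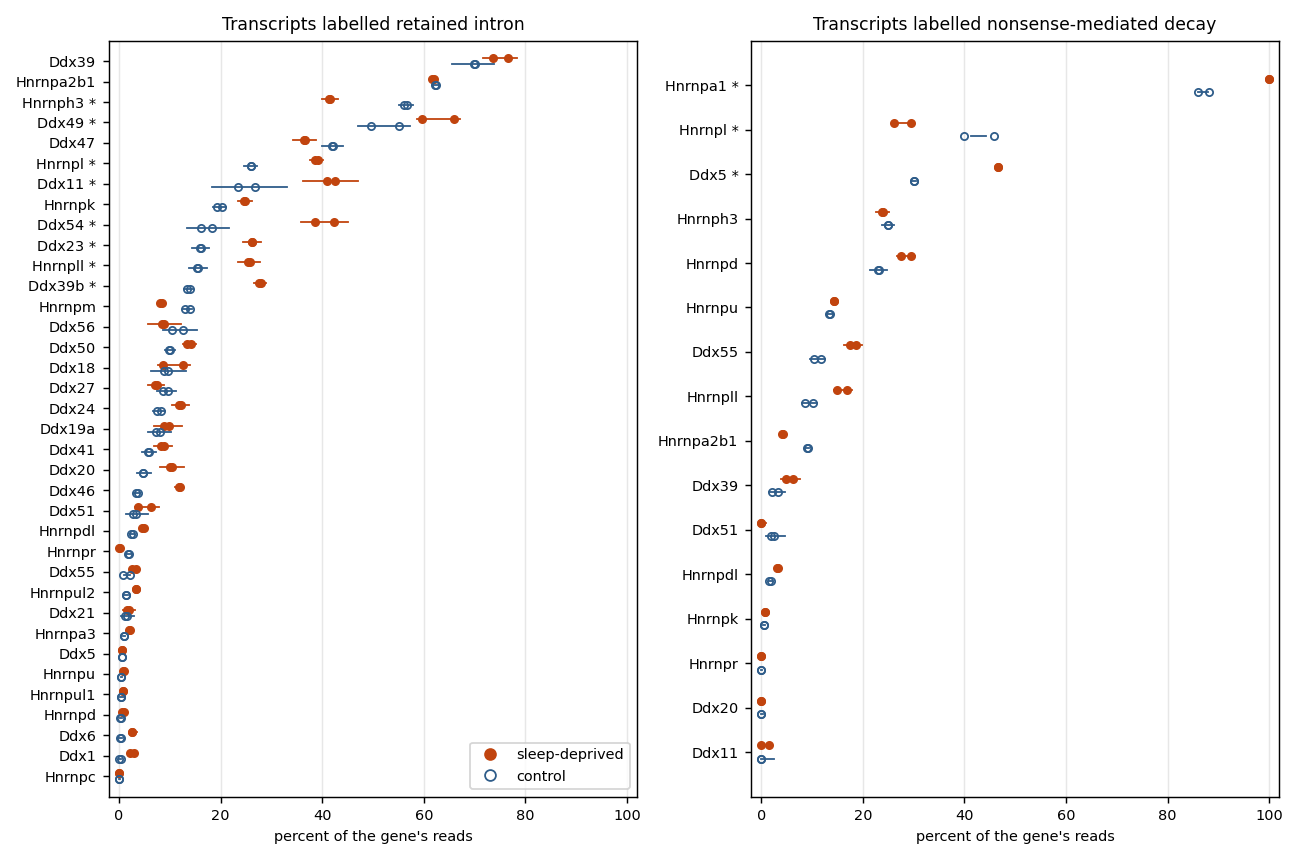
Percent of each gene's reads on transcripts labelled retained intron (left) or nonsense-mediated decay (right), for members with at least 100 reads in each library; filled points are the sleep-deprived files, open points the control files, lines the 95% binomial intervals, and an asterisk marks a called gene. Ddx39b sits at 27.8% against 13.7% on the left and Ddx5 at 46.7% against 30.1% on the right.

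Labels and structure did not always match, so introns were also followed by exon structure. Among noncoding transcripts of members with at least 100 reads, 31 distinct whole introns followed directly on a coding base, in 18 genes, and all 31 held a stop in frame, at a median of base 49 and at most at base 412. Stop codons are frequent in any intron, so this is a description of the sequence. Transcripts that keep a whole coding-region intron took 29.5% of Ddx reads in the sleep-deprived library and 17.4% in control, or 6.91% against 4.87% in control without Ddx5. They took 8.94% of hnRNP reads in the sleep-deprived library and 8.16% in control, and 8.62% of all reads against 6.38% in control. By this measure Ddx5, Ddx11, Ddx23 and Ddx54 were called higher and Hnrnph3 lower, beside 13.7% of 3272 genes higher and 4.16% lower.

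Several of the family totals depended strongly on single genes, though not all rested on them. Retained-intron labels took 17.1% of hnRNP reads in the sleep-deprived library and 15.2% in control, but 5.77% against 6.02% in control without Hnrnpa2b1. They took 5.11% of Ddx reads in the sleep-deprived library and 4.03% in control, and 10.8% against 7.23% in control without Ddx5. Nonsense-mediated decay labels took 26.4% of Ddx reads in the sleep-deprived library and 14.8% in control, but 0.644% against 0.436% in control without Ddx5. They took 10.8% of hnRNP reads in the sleep-deprived library and 11.2% in control, 6.40% against 8.22% in control without Hnrnpa1, and 12.5% against 11.7% in control without Hnrnpa2b1.

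**Figure D5:**
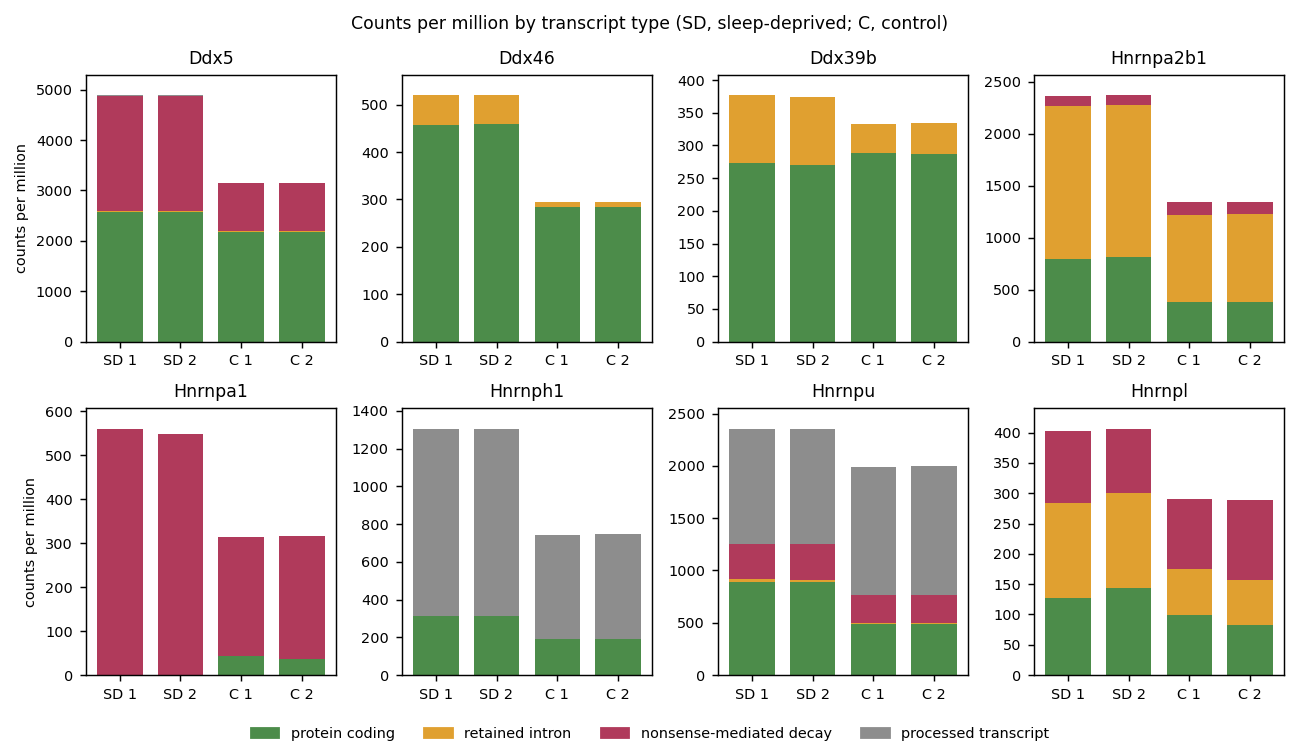
Level of 8 genes in each file in CPM, stacked by the annotated type of transcript, with the sleep-deprived files (SD 1, SD 2) left of the control files (C 1, C 2). In Ddx5 the segment labelled nonsense-mediated decay is the one that differs most, in Hnrnpu the coding segment is 892 CPM in the sleep-deprived library and 485 CPM in control, and in Hnrnpa1 the coding segment is at 0 in both sleep-deprived files.

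Hnrnpa2b1 showed a change of exon instead. Its share of retained-intron reads was 61.8% in the sleep-deprived library and 62.4% in control, and its most abundant transcript of that label, Hnrnpa2b1-211, had 975 and 977 CPM in the sleep-deprived files against 544 and 548 CPM in the control files. That transcript holds 0 of the coding bases of Hnrnpa2b1-204, so it reports on the end of the gene and not on an interrupted frame. An exon of 120 bases, a multiple of 3, is held by Hnrnpa2b1-204 and adds residues to the glycine-rich tail, the part of the protein through which it condenses with others. Of the CPM on transcripts that span this exon, 80.2% and 79.8% were on transcripts that hold it in the sleep-deprived files, against 26.5% and 24.1% in the control files. The level on transcripts that hold it was 719 CPM in the sleep-deprived library and 115 CPM in control, and on those that skip it 179 CPM against 340.4 CPM in control. Hnrnpa2b1-204, with the exon, had 445 and 447 CPM in the sleep-deprived files against 48.3 and 39.4 CPM in the control files, a ratio of 10.2 (9.39 to 11.04). Hnrnpa2b1-210, without it, was listed at 0 in both sleep-deprived files and at 209 and 220.4 CPM in the control files. Neither transcript has a 31-base word of its own, so the split between them rests on the authors' estimation model.

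In Hnrnpa1 the estimates shifted toward a transcript with an extra exon in the tail. The exon has 159 bases, also a multiple of 3. Of the transcripts counted, only Hnrnpa1-204 holds it. That transcript took 87.4% and 88.6% of the gene's reads in the sleep-deprived files, against 72.0% and 72.2% in the control files. Its level was 490 and 486 CPM in the sleep-deprived files against 226 and 227 CPM in the control files, a ratio of 2.15 (2.06 to 2.24). Hnrnpa1-204 also carries a stretch of 1011 bases beyond the end of Hnrnpa1-202, so its reads do not report on the exon alone. Hnrnpa1-202, the short coding form, was listed at 0 in both sleep-deprived files and at 43.8 and 37.6 CPM in the control files, and it has no 31-base word of its own. The share labelled nonsense-mediated decay was 100% in the sleep-deprived library and 87.1% in control, but Hnrnpa1-204 and Hnrnpa1-203 both hold all 960 coding bases of Hnrnpa1-202. Other quantified genes share 54.7% of the 31-base words of Hnrnpa1-202 and 74.5% of those of Hnrnpa1-203, so the reads of both are uncertain.

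In Hnrnpl the 70-base exon with an early stop took a smaller share. It was held by 47.2% and 41.5% of the CPM on transcripts that span it in the sleep-deprived files, against 52.8% and 60.6% in the control files. Hnrnpl-213, which holds it, had 119 and 106 CPM in the sleep-deprived files against 116 and 133 CPM in the control files, while the transcripts that skip it stood at 144 CPM in the sleep-deprived library and 96.0 CPM in control. The share of Hnrnpl reads labelled nonsense-mediated decay was 27.7% (26.6 to 28.9) in the sleep-deprived library and 42.8% (41.4 to 44.3) in control, and was called lower. Its transcripts labelled retained intron ran the other way. Hnrnpl-206 had 71.0 and 70.1 CPM in the sleep-deprived files against 30.3 and 30.4 CPM in the control files, a ratio of 2.33 (2.08 to 2.60), and Hnrnpl-205 a ratio of 1.77 (1.59 to 1.98). The control files lay apart for Hnrnpl-213, and it has no 31-base word of its own, so its split too rests on the model.

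Hnrnph1 and Hnrnpu held reads in forms whose label does not give their structure. Hnrnph1-204 and Hnrnph1-205, labelled processed transcripts, keep the same pair of whole introns of 1494 and 939 bases, with stops at intron bases 6 and 107. Hnrnph1-205 had 253 and 233 CPM in the sleep-deprived files, against 53.6 and 34.2 CPM in the control files, a ratio of 5.53 (5.09 to 6.02), and Hnrnph1-204 stood at 1.77 (1.69 to 1.85). They share all their 31-base words with other transcripts. The control files lay apart for Hnrnph1-205, so its interval, which covers counting error only, is too narrow for this estimate. The coding Hnrnph1-201 stood at 1.62 (1.55 to 1.70). Hnrnpu-205, also a processed transcript, lies beyond the end of Hnrnpu-201 and shares 0 bases with it. It had 1061 and 1059 CPM in the sleep-deprived files against 1197 and 1205 CPM in the control files, a ratio of 0.883 (0.864 to 0.902), and 91.8% of its 31-base words are its own. Hnrnpu-201, the coding form, had 892 and 892 CPM in the sleep-deprived files against 486 and 484 CPM in the control files. The gene-level ratio of Hnrnpu sums both.

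Across all transcripts of the members with at least 10 reads in a library, 75 of 237 were called higher and 18 lower, beside 23.5% of 40968 transcripts higher and 13.5% lower. Of 75 retained-intron transcripts 29 were higher and 4 lower, beside 30.5% and 7.96% of all transcripts so labelled. Of 121 coding transcripts 33 were higher and 10 lower, beside 19.5% and 14.7%. Of 22 processed transcripts 6 were higher and 1 lower, beside 26.4% and 17% of all so labelled, and of 19 labelled nonsense-mediated decay 7 were higher and 3 lower, beside 29.2% and 17.5%. Of these calls, 57 of the higher and 14 of the lower ones held when each file was left out in turn. As the files of a group count as 1 library, this shows the spread of the estimates and not agreement between samples. Transcripts with no 31-base word of their own made up 19 of the higher and 6 of the lower calls. Called transcripts with coding reads in other members included Hnrnpf-201 at 4.12 (3.41 to 5.02) and Hnrnpf-210 at 0.298 (0.259 to 0.342), which hold the same 1245 coding bases. Of their 31-base words only 0.71% and 0.32% are their own, so the split between them rests on the model. Another was Hnrnpr-204 at 0.211 (0.171 to 0.260), with 1.035% of its 31-base words its own. Hnrnpd-205, an AU-rich element binder's transcript labelled nonsense-mediated decay, stood at 3.63 (2.83 to 4.71). Ddx50-206, a processed transcript, had 0 and 5.44 CPM in the sleep-deprived files against 49.3 and 62.1 CPM in the control files, a ratio of 0.048 (0.034 to 0.067). Only 1.19% of its 31-base words are its own and 35.0% occur in another gene, so its estimate too rests on the model.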

How the data were processed

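The members and lists were chosen with earlier results of these data known. The submitters' processing notes name Salmon, DESeq2 and mm10, and give no Salmon version, annotation or strand setting. Per the file headers, the authors deposited for each of 116546 transcripts an estimated count (not normalized) and a TPM value, scaled by effective length. Transcripts were matched without version to GENCODE mouse release 21 (115977, 99.5%), which left out between 0.241% and 0.270% of reads on unmatched transcripts.

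The mean of the 2 files of a group was used as 1 library, rounded to whole reads for intervals, scaled by TMM in edgeR 4.0.16 (R 4.3.3). Of the genes, 14916 passed filterByExpr with a minimum count of 10. Ratios carry exact conditional (Clopper-Pearson) 95% intervals, with a library under 3 reads set to 3, and shares carry exact binomial 95% intervals. Both cover counting error only. Reads are not independent molecules. The planned edgeR quasi-likelihood and DESeq2 tests need replicates and could not be applied, so the text prints no p-value. TPM was used for levels between genes, for a share and for the length offset. An intron-keeping transcript is not labelled protein coding and has an exon that contains a whole intron of at least 50 bases between coding bases. A 31-base word is a transcript's own when no other quantified transcript holds it. Some members share many such words with other genes, such as 43.9% in Hnrnpk-201 and 62.9% in Hnrnpf-210. Their gene counts therefore rest on the model as well. The rules were tried on simulated independent Poisson and binomial counts, the model that the intervals assume. These hold no error of transcript estimation and no spread between mice, so they say nothing about either.

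Genes named were every member called on its level or on its retained-intron or decay share, the 8 hnRNP and 8 Ddx genes of highest mean CPM, and the ends of each role's range. The rule also covered the leading transcript of each label and every transcript called with at least 100 reads in a library, 43 higher and 12 lower. The text names a part of these, chosen after their values were seen, and gives the rest as counts. A few further genes and transcripts were named after their values were seen, among them Hnrnpf-201, Hnrnpr-204, Hnrnpd-205, Ddx4 and Ddx58. Some list members and sequences are not reported here.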

Additional observations from a re-analysis of the deposited data

How the results depend on the processing

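No paired analysis was possible because gene counts in the files of a group differ by less than the sampling noise. No test with a replicate block, by edgeR or DESeq2, could therefore be run. With transcript lengths allowed for, no member was called lower, and leaving out 1 file at a time gave 0 to 1 lower calls. At 1.5-fold 9 members were called higher and 2 lower, beside 12.5% and 13.6% of all genes. The hnRNP sum stood at 1.37, 1.40 and 1.30 times control with library totals, upper-quartile factors and the length offset, and the Ddx sum at 1.30, 1.32 and 1.37. Library totals moved the median log2 ratio of all genes to −0.06.

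As shares of TPM, the difference in retained-intron labels was 4.59 points for hnRNP and 1.73 for Ddx genes, and that in nonsense-mediated decay labels −1.81 and 10.5 points. On that scale 8 members were higher and 3 lower in retained-intron share and 2 higher and 2 lower in nonsense-mediated decay share. With a 5-point rule 9 were higher and 3 lower in the first and 5 higher and 1 lower in the second. Chosen after seeing the data, leaving out Hnrnpa2b1 gave −0.24 and 0.84 points for hnRNP genes, both with the sign reversed, leaving out Hnrnpa1 gave 2.14 and −1.82, and leaving out Ddx5 gave 3.59 and 0.21 points for Ddx genes. Intron-keeping reads differed by −1.71 points for hnRNP genes as shares of TPM, against 0.78 as shares of reads, and by 11.6 points for Ddx genes. The cause was not tested. Transcript values near 100 reads or without words of their own are limited by depth and by the model, and pooled mice give no spread.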

Other observations

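Transcripts of other members also moved apart. Hnrnph2-204, of 3988 bases, had 41.1 and 41.3 CPM in the sleep-deprived files and 19.03 and 18.9 CPM in the control files, a ratio of 2.17 (1.88 to 2.51). Hnrnph2-202, which has the same 1347 coding bases but no 31-base word of its own, stood at 0.381 (0.304 to 0.474). Ddx17-202, which holds 62.0% of the coding bases of Ddx17-203, had a ratio of 2.09 (1.73 to 2.54), where Ddx17-203 had 1.17 (1.13 to 1.20). Hnrnpa3-205 and Hnrnpul2-202, labelled retained intron, stood at 2.77 (2.21 to 3.48) and 2.95 (2.10 to 4.19). Hnrnpk-209, also labelled retained intron but without a 31-base word of its own, ran the other way at 0.398 (0.331 to 0.477). These transcripts were chosen after their values were seen.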
